A study of Mus musculus with 6 samples.

Results

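Genes of primordial germ cells, the embryonic precursors of sperm and eggs, were examined for SMAD proteins at their promoters in mouse embryonic stem cells. The 10 genes are Prdm1, Prdm14, Dppa3, Ifitm3, Ddx4, Dazl, Nanos3, Tfap2c, Kit and Dnd1. They were chosen by name, because each marks or is needed in the germ cell lineage, and not by any measured value. Earlier results of these data were known when they were chosen. Every array probe named for one of them was used, which gave 271 of 474380 probes and 9 of the 10 genes. Probes named for another gene that also list one of the 10 were left out, 28 for Nanos3, 21 for Dnd1 and 9 for Ifitm3. No probe carried the name Prdm14, and that gene is not analysed here. The number of probes per gene was 41 for Prdm1, 43 for Tfap2c under its older name Tcfap2c, 20 for Dppa3, 31 for Ifitm3, 35 for Kit, 22 for Nanos3, 10 for Dnd1, 39 for Ddx4 and 30 for Dazl.

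The cells were R1, a line of mouse embryonic stem cells, kept undifferentiated without feeder cells in medium with knockout serum replacement and leukemia inhibitory factor. No ligand, inhibitor or mutation was applied to any sample. Chromatin was cross-linked and precipitated with an antibody against SMAD1/5, SMAD2 or SMAD4, and the recovered DNA (Cy5, red) was hybridised against the whole cell extract DNA of its own precipitation, the input (Cy3, green). Each antibody had 1 biological replicate, hybridised to 2 arrays that carry different probes. Each probe was therefore measured on 1 array per antibody and without a dye swap. No test is possible, no p-value is given, and every SD below is taken over the probes of a single array and leaves out the variation from one experiment to the next. The arrays measure DNA, so neither the identity of the cells nor the expression of the germ cell genes could be checked against RNA.

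Germ cells of the mouse arise in the epiblast, when BMP signals from neighbouring tissue induce a few cells to leave the somatic path. BMP receptors phosphorylate SMAD1 and SMAD5, which enter the nucleus with the shared partner SMAD4, while SMAD2 carries Activin and Nodal signals. Prdm1 (BLIMP1), Prdm14 and Tfap2c (AP-2gamma) form the transcription factor core of specification. Ifitm3 (Fragilis) and Dppa3 (Stella) are early markers, Kit, Nanos3 and Dnd1 serve the survival and migration of the cells, and Ddx4 (the mouse Vasa homologue) and Dazl come on around the arrival in the gonad. Embryonic stem cells already express some of these genes, among them Dppa3, Ifitm3 and Kit.

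SMAD4 is known to contact the SMAD box GTCTAGAC and the shorter motif CAGAC, and SMAD1 and SMAD5 are known to bind GC-rich sites of the GGCGC kind. Of the 9 genes, 6 were searched in the RefSeq promoter table (GRCm38.p6), which spans 250 bases before to 50 bases after the gene start. Dppa3 and Tfap2c had no entry there, and Dnd1 was left out of the search. The 4 shown here were picked for their array values, so a contrast between their letters is no test of a link to those values. With SMAD1/5, Prdm1 was the highest of the 9 around the start site and Kit and Ddx4 were low there, while Nanos3 was high over its whole tile. Capitals mark CAGAC or its complement GTCTG, and GGCGC or its complement GCGCC, each searched on both strands.
Prdm1, chr10:44458699-44458998, minus strand: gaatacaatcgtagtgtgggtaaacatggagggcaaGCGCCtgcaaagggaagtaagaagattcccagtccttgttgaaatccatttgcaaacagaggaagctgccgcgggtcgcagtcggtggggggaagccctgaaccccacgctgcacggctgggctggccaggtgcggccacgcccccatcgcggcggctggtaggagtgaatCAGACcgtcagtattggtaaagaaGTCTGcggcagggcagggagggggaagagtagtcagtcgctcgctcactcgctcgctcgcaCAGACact
Nanos3, chr8:84176503-84176802, minus strand: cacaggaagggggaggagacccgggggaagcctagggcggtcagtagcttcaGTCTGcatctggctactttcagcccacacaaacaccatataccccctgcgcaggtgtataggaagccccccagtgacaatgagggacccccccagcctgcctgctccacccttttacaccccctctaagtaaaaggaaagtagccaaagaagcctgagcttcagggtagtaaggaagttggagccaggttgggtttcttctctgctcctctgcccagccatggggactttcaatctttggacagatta
Kit, chr5:75574737-75575036, plus strand: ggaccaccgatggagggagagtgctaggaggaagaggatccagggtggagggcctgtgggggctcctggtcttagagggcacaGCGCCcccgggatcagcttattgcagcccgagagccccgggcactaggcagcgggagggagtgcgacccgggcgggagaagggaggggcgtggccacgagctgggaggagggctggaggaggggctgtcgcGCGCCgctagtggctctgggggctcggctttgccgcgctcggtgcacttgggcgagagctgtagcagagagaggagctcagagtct
Ddx4, chr13:112652261-112652560, minus strand: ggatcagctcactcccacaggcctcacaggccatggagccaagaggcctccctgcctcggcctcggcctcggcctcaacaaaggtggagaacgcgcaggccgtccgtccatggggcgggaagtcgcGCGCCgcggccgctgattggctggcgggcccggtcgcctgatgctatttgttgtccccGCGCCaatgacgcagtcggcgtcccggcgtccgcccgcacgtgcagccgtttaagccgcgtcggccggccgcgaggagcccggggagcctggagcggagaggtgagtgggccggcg

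The Prdm1 window held 3 CAGAC matches, beginning at positions -43, -19 and 43 from the start, and 1 GGCGC match at -214. The Nanos3 window held 1 CAGAC match at -198 and no GGCGC. Kit and Ddx4 held no CAGAC and 2 GGCGC matches each, at -167 and -36 in Kit and at -124 and -66 in Ddx4. Of the other genes searched, Ifitm3 held 1 CAGAC match at 45, and Dazl held 1 CAGAC match at -187 and 1 GGCGC match at 3. Dazl thus held both motifs, and its SMAD1/5 mean within 500 bp of the start was also below 0 (-0.92 ± 1.02, 5 probes). The full SMAD box GTCTAGAC and the palindrome GGCGCC, which contains GGCGC, occurred in none of the 6. Among all 26735 promoters of the table, 49.57% held CAGAC, 37.38% GGCGC, 12.05% GGCGCC and 0.21% GTCTAGAC, and the 6 genes held CAGAC in 4 cases and GGCGC in 4. A match describes letters only. GC content was 72.0% in Ddx4, 69.0% in Kit, 68.7% in Dazl, 59.7% in Prdm1, 55.3% in Nanos3 and 53.0% in Ifitm3, against a median of 52.7% over the table. No build is named for the array annotation, so the array positions below and these coordinates are not interchangeable.

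Values are log2 ratios of immunoprecipitate over input, centred on the median of each array, so that 0 is the typical probe. A window is the mean over the probes within 500 bp of a probe, with at least 3 probes. Its z states how far it lay from the median window of its array, in units of the spread of the lower-lying windows. A window counted as enriched from a z of 4 upward if 2 or more of its probes exceeded the array's 95th percentile, and low by the mirrored rule. A z of 4 corresponded to a window mean of 4.61 and 4.17 on the SMAD1/5 arrays, 2.29 and 2.23 on the SMAD2 arrays, and 2.30 and 2.29 on the SMAD4 arrays. The SMAD1/5 arrays had noisier ratios, with an SD over probes of 1.93 and 1.76, against 0.91 to 0.99 on the other 4 arrays. Their input lay well above background at 72.3% and 87.0% of probes, against 86.1% and 88.5% with SMAD2 and 99.6% and 99.7% with SMAD4.

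None of the 9 germ cell genes was enriched with any of the 3 antibodies. Among all genes measured, 0.0% were enriched with SMAD1/5, 0.0658% with SMAD2 and 2.49% with SMAD4, so 0 of 9 is what these rates give for so few genes and does not set the germ cell genes apart. None was low either, where 2.62%, 0.335% and 0.0478% of all genes were. The highest z of the 9 was 1.86 with SMAD1/5 (Tfap2c), 2.39 with SMAD2 (Nanos3) and 3.12 with SMAD4 (Kit). The median peak z of the 9 was 1.55, 1.52 and 1.97, beside 1.26, 1.35 and 1.74 over all genes.

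Below the call, peaks with a z of at least 2 were seen at 0 of 9 genes with SMAD1/5, where 5.94% of all genes had one. With SMAD2 they were seen at 3 of 9, Nanos3 (2.39), Prdm1 (2.36) and Ifitm3 (2.15), where 18.4% of all genes had one. With SMAD4 they were seen at 4 of 9, Kit (3.12), Ddx4 (2.95), Ifitm3 (2.72) and Dazl (2.71), where 40.1% of all genes had one. Ifitm3 was the one gene in both groups, and its SMAD2 and SMAD4 windows lay 3154 bp apart. In the other direction, a lowest z of -2 or under was seen at Dppa3 with SMAD1/5 (-2.18), at Kit (-3.51), Prdm1 (-2.81) and Dazl (-2.61) with SMAD2, and at Ddx4 with SMAD4 (-2.34). All genes reached that level in 32.2%, 30.0% and 18.2% of cases. Peaks and troughs of this size therefore occurred among the germ cell genes about as they did on the arrays at large.

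**Figure D1:**
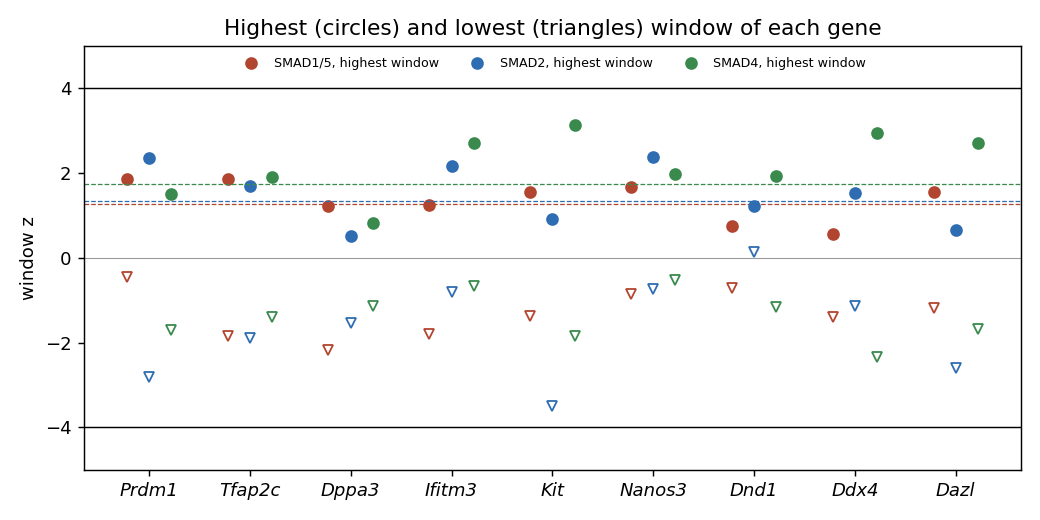
Highest window (filled circles) and lowest window (open triangles) of each of the 9 genes as window z, by antibody. Dashed lines give the median peak z of all genes (1.26, 1.35 and 1.74 for SMAD1/5, SMAD2 and SMAD4), and solid lines the levels of 4 and -4 used for calls; all 27 circles lie below 4, the highest being Kit with SMAD4 at 3.12.

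Over whole promoter tiles, the median ratio of the 9 genes ran from -0.17 to 1.59 with SMAD1/5, from -0.17 to 0.54 with SMAD2 and from -0.28 to 0.54 with SMAD4. It was above 0 in 7, 4 and 5 of 9 genes, where 50.9%, 50.4% and 48.7% of all genes were above 0. Nanos3 and Dnd1 were the 2 genes above 0 with all 3 antibodies, which 13.7% of all genes were. Both encode RNA-binding proteins that keep germ cells alive. Nanos3 was in addition at the 90th percentile or above, among the genes on its array, with each antibody, which 24 of 17042 genes (0.141%) were.

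**Figure D2:**
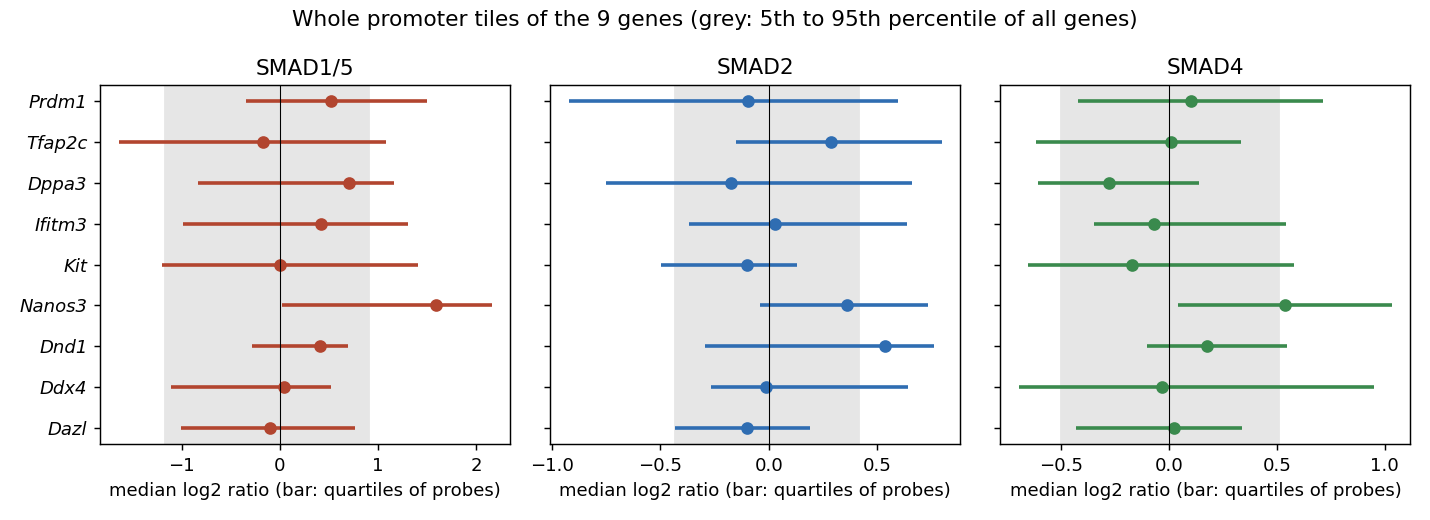
Median log2 ratio over all probes of each gene (points) with the quartiles of its probes (bars), by antibody. The grey band holds the 5th to 95th percentile of all genes' medians; Nanos3 lies to its right with SMAD1/5 (1.59) and SMAD4 (0.54), Dnd1 with SMAD2 (0.54), and the other points lie inside it.

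Prdm1, the zinc finger repressor that shuts down the somatic programme in germ cell precursors, lies on the minus strand of chromosome 10, with its tile at 44269707 to 44277442 and its start site at 44272062. It was the gene whose start region ranked highest with SMAD1/5. The median ratio of its 12 probes within 1000 bp of the start was 1.27, at the 95.4th percentile of all genes, while SMAD2 gave -0.11 (11 probes) and SMAD4 0.01 (12 probes). This start-region value was not computed under the alternative settings. The SMAD1/5 median of the whole Prdm1 tile was 0.53, and ran from 0.09 to 0.75 over the settings. Along the probes upstream of the start, SMAD1/5 gave 4.30 at -1123, 1.87 at -902, 2.43 at -680, -1.002 at -523, 1.31 at -337 and 2.38 at -180. At the same positions SMAD4 gave -0.09, 0.30, 1.11, 0.01, 0.35 and 1.61. SMAD2 gave 1.13, -1.07, -0.67, 0.99 and -1.03 at the first 5 of them, the sixth spot being flagged as an outlier. With SMAD1/5, 5 of these 6 probes were above 1, with SMAD4 the 2 at -680 and -180, and with SMAD2 values of both signs alternated.

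The highest SMAD1/5 window of Prdm1, centred at -680, had a mean of 1.88 ± 1.73 (SD over 6 probes) and a z of 1.85. That is far under the call, which 0 of 16729 genes met with SMAD1/5. The probe at -1123 alone reached 4.30, with an immunoprecipitate signal of 7374 against an input of 273. In that window the immunoprecipitate lay 1.06 (log2) above the mean of the other antibodies' immunoprecipitates, and the input lay 0.19 below the other inputs. The SMAD2 and SMAD4 peaks of Prdm1 were elsewhere, past the start site at 2326 (1.33 ± 0.49, 4 probes) and 2205 (0.91 ± 1.15, 5 probes), and overlapped each other by 431 bp. The SMAD1/5 window z at the SMAD2 peak was 1.41, so that all 3 antibodies were above 0 at this downstream end. The lowest SMAD2 window, at -1722, had a mean of -1.51 ± 0.33 over 5 probes, with an input 1.67 above the other inputs.

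Tfap2c encodes the AP-2gamma factor that acts beside PRDM1, and its tile spans 172336772 to 172344883 on the plus strand of chromosome 2. Its SMAD2 values were mostly positive, with 30 of 42 probes above 0 and a median of 0.29, at the 87.9th percentile among the genes on its array. Within 500 bp of the start all 6 probes were above 0 with SMAD2, from 0.01 to 1.20, with a mean of 0.56 ± 0.42. The same 6 probes averaged 0.13 ± 2.27 with SMAD1/5 and 0.23 ± 0.65 with SMAD4, of which 4 each were above 0. The tile median was -0.17 with SMAD1/5 and 0.01 with SMAD4. The SMAD1/5 peak lay at -4796 (2.05 ± 1.18, 4 probes, z 1.86), where the SMAD2 window z was -1.88.

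At the downstream end of Tfap2c, around 2591, 3 probes gave the gene's lowest SMAD1/5 window, -2.40 ± 2.38, and its highest SMAD4 window, 1.14 ± 1.08. The input channels differed strongly there. The SMAD1/5 input lay 3.72 (log2) above the other 2 inputs, and the SMAD4 input stood at -3.02 relative to the others. The immunoprecipitates differed by less, SMAD4's being 0.61 below the other 2 and SMAD1/5's 0.04 below.

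Dppa3 encodes Stella, the marker of newly specified germ cells, and its tile covers 122658996 to 122665715 on the plus strand of chromosome 6. Its median ratio was 0.71 with SMAD1/5 (86.9th percentile among the genes on its array), -0.17 with SMAD2 and -0.28 with SMAD4. Within 1000 bp of the start the SMAD1/5 median was instead -2.70, at the 1.25th percentile of all genes. That value rests on 5 probes, which gave -2.82 at -962, -2.90 at -597, -2.70 at -455, 1.43 at 442 and 0.86 at 642. SMAD2 gave 0.25, -0.10, -0.19, 0.99 and 0.92 there, and SMAD4 0.00, -0.32, -0.28, -0.21 and 0.15. The 3 upstream probes were low with SMAD1/5, and lay between -0.32 and 0.25 with the other two antibodies.

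The probes of Dppa3 at -597 and -455 were not well above background in either SMAD1/5 channel, with an input of 80.9 and 69.6 and an immunoprecipitate of 19.4 and 19.2. Their ratios therefore compare dim signals. At -962 both channels were well above background, with an input of 5586 and an immunoprecipitate of 1421. The lowest SMAD1/5 window of the gene, centred at -597, joins these 3 probes (-2.81 ± 0.10, z -2.18). Among windows of at least 3 probes, Dppa3 had the lowest peaks of the 9 genes with SMAD2 (z 0.51) and SMAD4 (z 0.81). Its tile is sparse, and only 11 of its 20 probes had such a window. Stretches of 2 probes, which could not count, had means above these peaks. They include 1.37 with SMAD4 at -4219 and -3986, and 0.96 with SMAD2 at 442 and 642.

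Ifitm3, an interferon-induced membrane protein gene and one of the earliest markers of germ cell competence, lies on the minus strand of chromosome 7 at 137425646 to 137433039. Its medians were 0.42, 0.03 and -0.07 with SMAD1/5, SMAD2 and SMAD4. Its SMAD4 peak, centred 606 bp past the start, was the most even of the 27 peak windows, with 3 probes between 1.51 and 1.66 and a mean of 1.59 ± 0.07 (z 2.72). The SMAD4 immunoprecipitate lay 0.10 above the other immunoprecipitates there, and the SMAD4 input 1.56 below the other inputs. The SMAD2 peak lay upstream at -2548, with a mean of 1.25 ± 0.85 over 4 probes, and again the input was lower than the others, by a log2 difference of -1.05. SMAD1/5 peaked at 2229 (1.31 ± 0.41, 4 probes, z 1.25) and was lowest at -1076 (-2.35 ± 0.69, 4 probes).

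**Figure D3:**
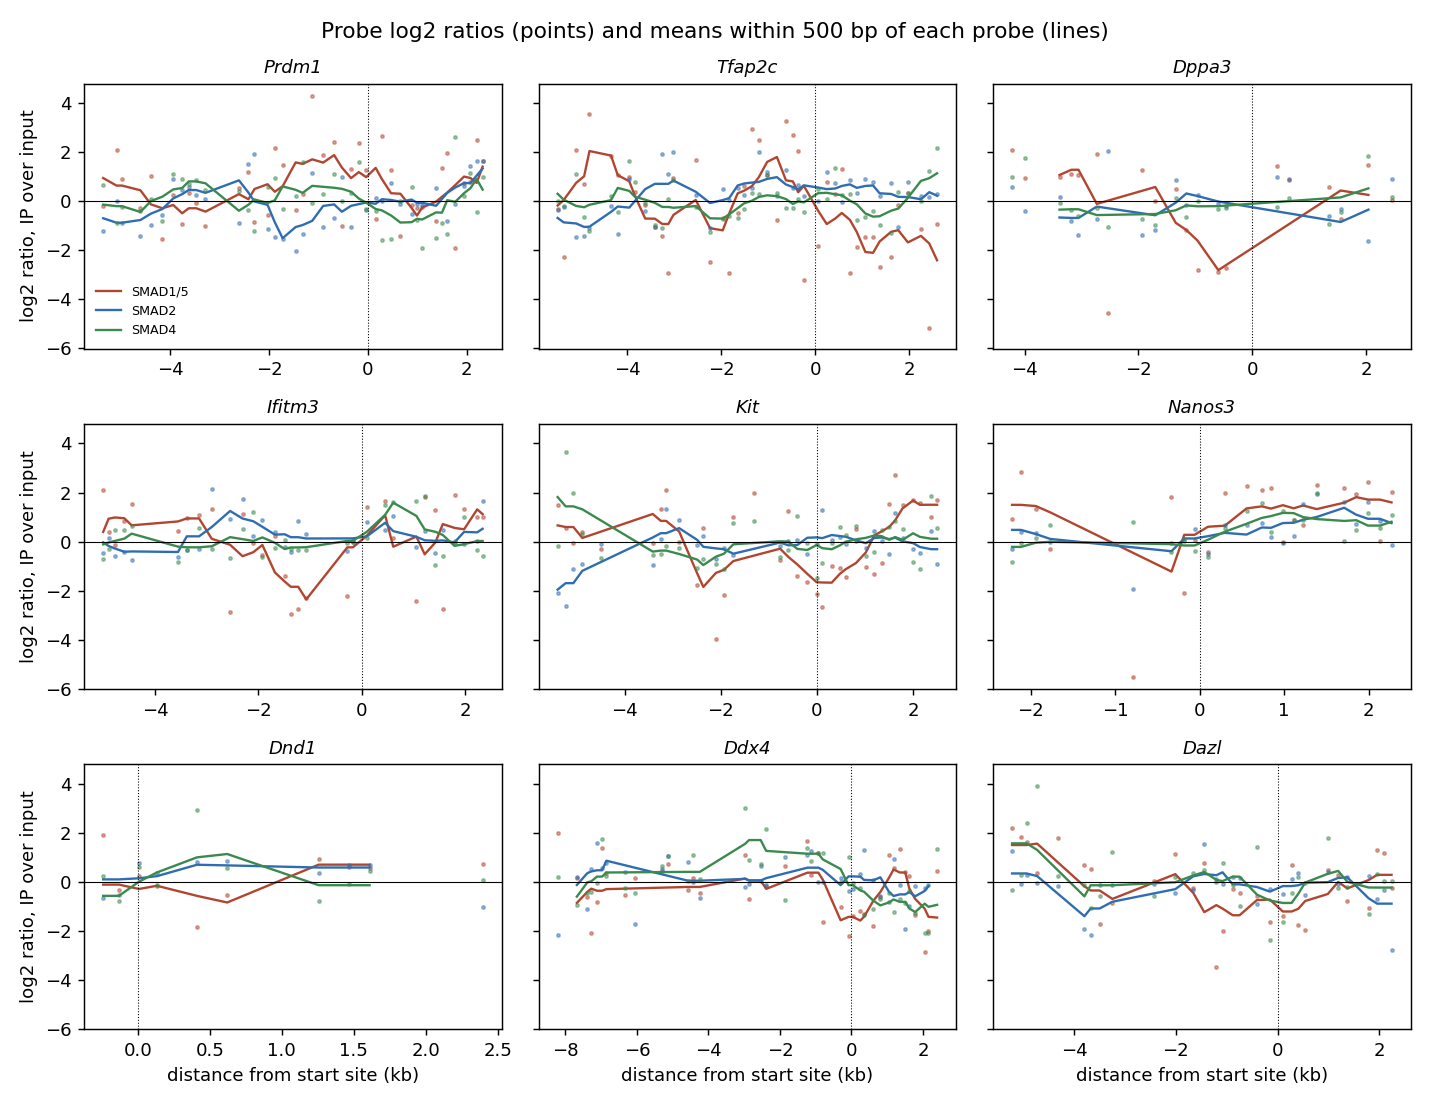
Log2 ratio of immunoprecipitate over input at every probe (points) and the mean over probes within 500 bp (lines) against distance from the annotated start site in kb, for the 9 genes and 3 antibodies. The SMAD1/5 line runs above 0 upstream of the Prdm1 start and along most of Nanos3, and below 0 at the starts of Kit and Ddx4; at the far left of Kit the SMAD4 line is high where the SMAD2 line is low.

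Kit, the receptor for stem cell factor that migrating germ cells depend on, lies on the plus strand of chromosome 5, with a tile from 74987854 to 74995806. Its tile medians were near 0 (0.0026, -0.10 and -0.17), but single stretches stood apart. Around the start site the SMAD1/5 ratio was low at all 6 probes within 500 bp, with -1.39 at -408, -1.63 at -199, -2.15 at -7, -2.68 at 112, -0.99 at 308 and -1.09 at 480. Their mean was -1.65 ± 0.65, against 0.17 ± 0.59 with SMAD2 and -0.14 ± 0.92 with SMAD4. All 6 were low in the ratio while their SMAD1/5 input was bright, on average 3.58 (log2) above the median input probe of its array. The immunoprecipitate there was also above its median, by 1.25. With SMAD2 and SMAD4 the input averaged 1.08 and 0.72 above the median. Toward the end of the tile, around 2001, SMAD1/5 had its Kit peak, with 7 probes between 1.02 and 2.70 and a mean of 1.67 ± 0.51 (z 1.55).

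The highest peak z among all germ cell genes, 3.12 with SMAD4, was at the far upstream end of Kit, at 74987854 to 74988239. Its 3 probes at -5394, -5227 and -5067 gave -0.18, 3.63 and 1.98 with SMAD4, for a mean of 1.81 ± 1.91. The same 3 probes gave -2.09, -2.64 and -1.14 with SMAD2, for a mean of -1.96 ± 0.76 and the lowest z of the set (-3.51). SMAD1/5 gave 1.498, 0.54 and -0.06. The SMAD4 peak thus rested on 2 probes, and the SMAD2 trough on all 3 at the same place. The SMAD4 input was 1.87 below the mean of the other inputs and the SMAD2 input 1.96 above it, while the immunoprecipitates were 0.77 above and 0.75 below the others. Over the alternative settings the Kit peak z with SMAD4 ran from 0.98 to 3.13.

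Nanos3, an RNA-binding protein gene whose loss leads to early death of germ cells, gave the highest whole-tile ratios of the set with SMAD1/5 and SMAD4 and was second to Dnd1 with SMAD2. Its 22 probes lie on the minus strand of chromosome 8 at 82756639 to 82761182. The median was 1.59 with SMAD1/5 (99.6th percentile among the genes on its array), 0.36 with SMAD2 (93.0th) and 0.54 with SMAD4 (95.5th), with probe SDs of 1.89, 0.85 and 0.72. Of the 22 probes, 17, 16 and 17 were above 0, and 12 were above 0 with all 3 antibodies, which 13.7% of all probes on the arrays were. The gene was singled out after its values were seen.

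The SMAD1/5 ratio of Nanos3 was high on both sides of the start site, with a window z of 1.41 at the upstream end (-2222), where SMAD2 had 0.79 and SMAD4 -0.52. That upstream window also takes in probes beyond the last one named for Nanos3. Past the start, with SMAD1/5 the probes at 298, 555, 736, 843 and 986 gave 1.98, 2.25, 2.10, 2.20 and -0.005. SMAD4 gave 0.54, 1.24, 1.57, 0.38 and 1.25 there, and SMAD2 0.67, 0.69, 0.74, 0.19 and -0.06. Each antibody was above 0 at the first 4 of these probes. The peak windows were centred at 1854 with SMAD1/5 (1.81 ± 0.90, 6 probes, z 1.67), 1711 with SMAD2 (1.38 ± 0.48, 6 probes, z 2.39) and 986 with SMAD4 (1.17 ± 0.51, 7 probes, z 1.97). The SMAD1/5 and SMAD2 windows shared 806 bp, the SMAD2 and SMAD4 windows 218 bp, and the SMAD1/5 and SMAD4 windows 60 bp with centres 868 bp apart. All 3 pairs overlapped in this sense at 11.9% of all genes. At the start site itself the probes were mixed, with SMAD1/5 means of 0.28 ± 1.69 over 5 probes and a single value of -5.51 at -786.

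Values of the 2 channels and of the chromosome belong beside the Nanos3 medians. In the SMAD1/5 peak window the immunoprecipitate was 0.83 above the others and the input 0.66 above them. In the SMAD2 peak window the input was 1.63 below the other inputs and the immunoprecipitate 0.98 below the others. All probes of chromosome 8 had a median of 0.41 with SMAD1/5, against 0.02 with SMAD2 and -0.01 with SMAD4. After centring on each chromosome the SMAD1/5 median of Nanos3 was 1.18. Over all settings it ran from 0.51 to 1.59, with SMAD2 from 0.34 to 0.59 and with SMAD4 from 0.54 to 1.06, so it stayed above 0 in each one tried.

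Dnd1 encodes the RNA-binding protein dead end, whose loss removes germ cells and gives testicular teratomas on a susceptible background. It has 10 probes on chromosome 18, and its windows around the start take in further probes that do not carry its name. The named probes reach upstream only to -242, so the median leaves out the promoter beyond that point. A further 21 probes, named for Wdr55, also list Dnd1 and were not counted. The median was 0.41 with SMAD1/5, 0.54 with SMAD2 (97.8th percentile among the genes on its array) and 0.18 with SMAD4, and 6, 7 and 6 of 10 probes were above 0. Its peak windows were modest, with z of 0.74, 1.22 and 1.93. The SMAD4 peak, at 620, held 3 probes from -0.11 to 2.95, and so rested on 1 high probe. The SMAD2 median ran from -0.16 to 0.55 over the settings, and was therefore not stable in sign.

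Ddx4 encodes the germ cell RNA helicase, and 25 of its 39 probes on chromosome 13 (109805773 to 109816444, minus strand) are shared with the divergently transcribed 9130023D20Rik. Those probes cannot be assigned to one gene. Within 500 bp of the Ddx4 start all 5 probes were below 0 with SMAD1/5, from -2.21 to -1.04, with a mean of -1.42 ± 0.46. SMAD2 gave 0.23 ± 0.67 and SMAD4 -0.13 ± 0.83 at the same probes. The SMAD1/5 input there averaged 2.34 above the median of its array, against 0.87 with SMAD2 and 0.70 with SMAD4. Ddx4 shared this low SMAD1/5 ratio over bright input with Kit.

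The SMAD4 peak of Ddx4, at -2863, had a mean of 1.71 ± 1.09 over 4 probes, all above 0 (0.74 to 3.03), and a z of 2.95. SMAD1/5 and SMAD2 had window z of 0.14 and 0.05 there. The SMAD4 input was 2.04 below the mean of the other inputs and the immunoprecipitate 0.30 below the others, so neither channel of SMAD4 was above the others in this window. Over the settings this z ran from 0.65 to 3.58. The lowest SMAD4 window of the 9 genes was also in Ddx4, at 1785 (-1.22 ± 0.72, 6 probes).

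Dazl, an RNA-binding protein gene that licenses germ cells for sexual differentiation, has 30 probes on chromosome 17 (48439291 to 48446800, minus strand). Its medians, -0.10, -0.10 and 0.02, were close to 0 with all 3 antibodies. The SMAD1/5 and SMAD4 peaks overlapped far upstream, at -4722 (1.56 ± 0.71, 5 probes) and -5213 (1.57 ± 1.96, 4 probes). The SMAD4 window there held single probes from -0.32 to 3.93, and SMAD2 had a z of 0.57 in it. Relative to the other antibodies, the SMAD4 immunoprecipitate stood at -0.04 (log2) and the SMAD4 input at -0.78. Over the settings the SMAD4 peak z of Dazl ran from 1.22 to 2.72. SMAD2 was lowest at -3793, with -1.40 ± 1.09 over 3 probes.

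The region within 1000 bp of the start separated the genes most with SMAD1/5. The median there was 1.27 in Prdm1, 0.95 in Nanos3, 0.28 in Tfap2c, 0.14 in Ifitm3, -0.24 in Dnd1, -0.57 in Dazl, -1.24 in Kit, -1.30 in Ddx4 and -2.70 in Dppa3. It was below 0 in 5 of 9 genes, where 59.5% of all genes were, and below the rest of the tile in 7 of 9, where 60.8% were. The 2 exceptions were the specification factors Prdm1 (1.27 near, 0.33 beyond) and Tfap2c (0.28 near, -0.24 beyond). With SMAD2, 2 of 9 genes were below 0 near the start (46.2% of all genes) and 3 of 9 below the rest of the tile (47.0%). With SMAD4 the numbers were 4 of 9 (56.2%) and 4 of 9 (56.6%). A lower SMAD1/5 ratio at the start site was thus common on the arrays and not a property of the germ cell genes.

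Across the 27 peak windows, the antibody's own input was lower than the average of the other 2 in 24, by at least 1 (log2) in 8. The immunoprecipitate was above the mean of the other 2 in 19, by at least 1 in 2, the SMAD1/5 windows of Prdm1 and Dnd1. The immunoprecipitate and input differences added up to more than 0 in 6 of 9 windows with SMAD1/5, 2 of 9 with SMAD2 and 0 of 9 with SMAD4. The 6 with SMAD1/5 include Dazl, Nanos3 and Dnd1, which had no input deficit. Their input lay 0.23, 0.66 and 1.20 above the other inputs. A window picked for a high ratio tends to have a low input by that choice alone, so these counts describe the windows and are not compared with a background. Of the 27 windows, 7 rested on 3 probes, 9 had a probe SD of at least 1, 17 had every probe above 0, and 6 were centred within 1000 bp of the start.

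**Figure D4:**
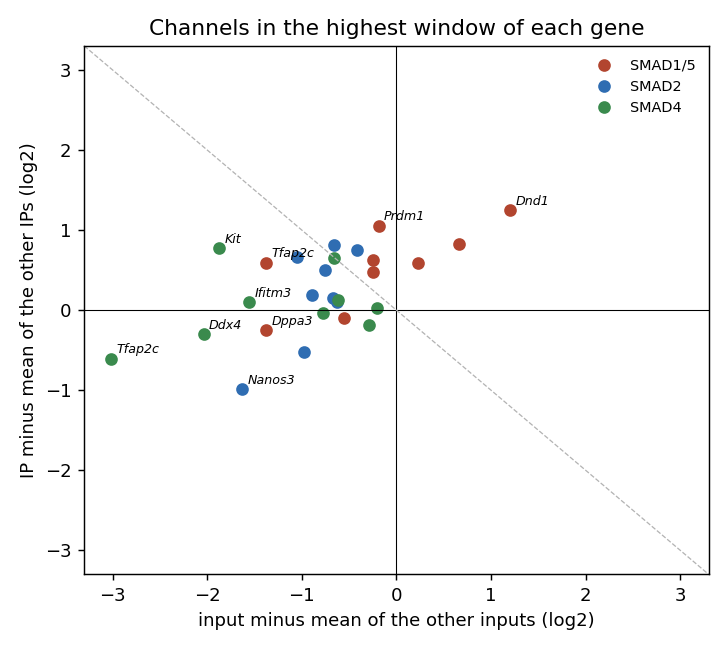
Input (horizontal) and immunoprecipitate (vertical) of the highest window of each gene, each as log2 difference from the mean of the other 2 antibodies' channels at the same probes. Of the 27 points, 24 lie left of 0. Points above the dashed line, where the 2 differences add up to more than 0, number 6 for SMAD1/5, 2 for SMAD2 and 0 for SMAD4. The SMAD1/5 points of Dazl, Nanos3 and Dnd1 lie right of 0, with no input deficit.

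Peak windows of 2 antibodies overlapped in 6 of 27 gene and antibody pairs, where 31.3% of such pairs did over all genes. By pair, SMAD1/5 and SMAD2 overlapped in 1 of 9 genes (33.2% of all genes), SMAD1/5 and SMAD4 in 2 of 9 (30.0%) and SMAD2 and SMAD4 in 3 of 9 (30.8%). The 6 were all 3 pairs in Nanos3, SMAD2 with SMAD4 in Prdm1 and in Dnd1, and SMAD1/5 with SMAD4 in Dazl. Across the probes of the 9 genes, which share arrays and neighbours and are not independent, Pearson's r of the log2 ratio was 0.031 between SMAD1/5 and SMAD2 (266 probes), 0.196 between SMAD1/5 and SMAD4 (271) and 0.042 between SMAD2 and SMAD4 (266). Over all probes it was 0.044, 0.034 and 0.058. The immunoprecipitate channels alone gave 0.578, 0.617 and 0.814 over the same probes, and the inputs 0.511, 0.457 and 0.572. The ratio of an antibody against its own input, which it contains, gave -0.539, -0.467 and -0.531.

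Genes around the germ cell programme were taken from 5 further lists, and their counts are to be read against all genes, of which 5.94% peaked at a z of 2 or more with SMAD1/5, 18.4% with SMAD2 and 40.1% with SMAD4. Enriched and low calls in the lists are those of the reported setting. Among all genes, 416 were enriched with SMAD4 and 439 low with SMAD1/5. Over the alternative settings the first count ran from 2 (mean input of the 3 antibodies) to 420. The second ran from 28 (trend on the own input removed) to 2802. Of the signals that induce germ cells, 15 of 17 were measured, and 0, 3 and 4 of them reached a z of 2 with the antibodies in this order. The highest were Id2, a BMP target, with SMAD1/5 (1.796), the BMP receptor gene Acvr1 with SMAD2 (2.36) and the ligand gene Bmp2 with SMAD4 (4.20), the only one enriched, where 2.49% of all genes were. Eomes and Bmp4 were low with SMAD1/5 (-5.28 and -4.93), as 2.62% of all genes were. All 16 survival and migration genes were measured, with 0, 5 and 6 at that level. Cxcl12, the chemokine that guides migrating germ cells, was enriched with SMAD4 (4.75) and highest with SMAD2 (2.83), Tial1 was highest with SMAD1/5 (1.95), and Elavl2 was low with SMAD2 (-4.20), as 0.335% of all genes were.

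Of the pluripotency genes that germ cells share with stem cells, 13 of 15 were measured, and 0, 0 and 2 reached a z of 2. None was enriched, and the highest were Lin28a with SMAD1/5 (1.94) and SMAD4 (2.89) and Esrrb with SMAD2 (1.97). Of later germline genes, 22 of 29 were measured, with 1, 3 and 11 at that level, which for SMAD4 is 50.0% against 40.1% of all genes. Piwil2, a partner of piRNAs, was enriched with SMAD4 (4.73), the meiotic recombinase gene Dmc1 was highest with SMAD2 (3.11), and Tex101 was highest with SMAD1/5 (2.04). Tex101 and Tex19.1 were low with SMAD1/5 (-4.56 and -4.89), a call that 2.62% of all genes had. Of the epigenetic regulators, 17 of 20 were measured, with 1, 3 and 6 at that level, led by the histone demethylase genes Kdm6b with SMAD1/5 (2.22) and Kdm6a with SMAD4 (4.55, enriched) and by Dnmt3l with SMAD2 (2.53). The median peak z of the 5 lists lay between 1.27 and 1.47 with SMAD1/5, 1.34 and 1.61 with SMAD2, and 1.19 and 1.86 with SMAD4, beside the 1.26, 1.35 and 1.74 of all genes.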

How the data were processed

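The 6 arrays are Agilent 2-colour promoter arrays, a pair per antibody, and their titles gave antibody and array number. Spot intensity in both channels was taken from the deposited scanner files. Agilent Feature Extraction had subtracted background from this intensity and normalised the dyes, per the file headers, in version 9.1.3.1 with a copy number protocol for SMAD1/5 and SMAD2 and in version 9.5.3.1 with a ChIP protocol for SMAD4. Extraction and antibody cannot be told apart for SMAD4. Other deposited columns are flags of 0 or 1 for outlying, saturated or dim spots. The authors' deposited log2 values correlated with log2 red over green at r from 0.737 to 0.952 over probes, which gives the direction immunoprecipitate over input. Their column medians were 0.0774 and -0.0134 (SMAD1/5), 0.046 and 0.0407 (SMAD2), and -0.0047 and -0.0023 (SMAD4), and their scale and centring stay unknown. They served as an alternative.

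Outlier spots were left out (1.06% and 1.82% of probes with SMAD2, 0.0084% to 0.0194% elsewhere) and saturated ones kept. Ratios and log2 channel signals were centred on each array's median, without loess or scaling. The spread behind z is 1.4826 times the median distance of the windows below the median. Gene names were updated through the GRCm38.p6 RefSeq table for 16112 of 17100 array names by accession, 349 by symbol and 370 by older symbol. Positions and start sites are those of the array annotation, with a build not given in the sources used here. Probes of mmu-mir-181c (28), Ifitm6 (9) and Wdr55 (21) also list Nanos3, Ifitm3 and Dnd1 and were not counted for those genes. The genes and lists were chosen with earlier results of these data known. All 10 genes could be named, with genes sharing their probes and, from each further list, the highest gene per antibody and any enriched one; low genes were added after their values were seen. Window calls were tested on simulated data. Python 3.11.15, pandas 2.3.3 and numpy 2.4.6 were used, with limma 3.58.1 in R 4.3.3 for normexp (offset 50). The 7 alternatives were normexp, the authors' values, windows of 1000 bp to each side, bright input probes, the mean input of the 3 antibodies, removal of the trend on the own input, and centring per chromosome.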

Additional observations from a re-analysis of the deposited data

How the results depend on the processing

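The count of enriched germ cell genes was 0 of 9 with SMAD2 and SMAD4 under all 7 alternatives, and with SMAD1/5 under 6 of them. The share of all genes enriched ran from 0.012% to 0.107% with SMAD2 and from 0.012% to 2.51% with SMAD4. With SMAD1/5 it ran from 0.0% to 0.167% in those 6. Counts of 0 of 9 are therefore what such rates give and do not set the germ cell genes apart. Under normexp 1 gene was enriched with SMAD1/5, Ifitm3 at a z of 4.08, where 5.15% of all genes were. Counts of genes with a peak z of at least 2 moved more. With SMAD1/5 the count went from 0 to 8 under normexp (43.5% of all genes), to 3 with windows of 1000 bp to each side (9.45%) and to 5 with the mean input (18.8%). With SMAD2 it went from 3 to 0 under normexp, with the mean input and with the trend on the own input removed, and to 1 with the wider windows, while the share of all genes went from 18.4% to 13.7%, 10.7%, 6.49% and 14.5%. With SMAD4 it went from 4 to 1 with the mean input and to 2 with the trend removed, and the share of all genes from 40.1% to 11.8% and 16.1%. The count of medians above 0 with SMAD2 went from 4 to 2 with the mean input, while the share of all genes went from 50.4% to 49.1%. The cause was not tested. Of 189 single peak z values under the alternatives, 20 moved by at least 1. Of 162 single medians, 35 changed sign, and none moved by more than its probe SD. Each reported median was itself smaller in size than that SD, which is a spread of single probes. The limit is therefore wide, and staying within it does not show that a median is stable. No paired analysis was possible because each antibody has 1 array per probe. Leaving out a replicate was not possible either. Dim input on the SMAD1/5 arrays limits ratios there, above all at Dppa3.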
